A study of Homo sapiens with 9 samples.

Results

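The cytosolic ribosomal proteins make up the protein part of the ribosome that translates nuclear messenger RNA. Probe sets were taken as members where the platform annotation gave a single gene symbol that starts with RPL or RPS and a digit, or is RPLP0, RPLP1, RPLP2 or RPSA. The kinases of the RPS6K family, pseudogenes and antisense genes were left out. This gave 123 of the 54675 probe sets on the array, and 62 of the 19775 genes. Of these genes, 52 encode ribosomal proteins proper, on 111 probe sets: 30 of the large 60S subunit, 20 of the small 40S subunit, and RPLP1 and RPLP2 of the acidic stalk. Another 9 are paralogues, copies that resemble a ribosomal protein, and 1 of these is Y-linked and is only counted. The last member, RPS19BP1, binds RPS19 and is not itself a ribosomal protein. Of 77 ribosomal protein names looked for, these 52 had a member probe set and the rest were not analysed here. A further 64 probe sets pair a ribosomal protein with other symbols and were not members. Of the ribosomal proteins not analysed, 15 were named only on such probe sets, RPL5, RPL10, RPS20 and RPS26 among them.

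RNA came from P493-6, an established human B-lymphocyte line, and was hybridised to 9 single-colour Affymetrix arrays. By their labels 4 arrays are high Myc, 3 are low Myc and 2 are no Myc, and all share the same line, total RNA extracted with Qiagen RNeasy and a biotin label. They give no treatment, time or culture. It is therefore not known whether replicates were separate cultures, and p-values measure only the spread between arrays, which may be technical. As background, P493-6 is a single engineered line whose MYC transgene can be repressed with tetracycline.

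A ribosomal protein is made in the cytoplasm, imported into the nucleus and built into a subunit there with ribosomal RNA, while dedicated chaperones keep it soluble. Messengers of ribosomal proteins are among the most abundant in dividing cells. Most start with an unbroken stretch of C and T called the 5′ terminal oligopyrimidine (TOP) tract, through which the mTOR pathway and the protein LARP1 set their translation and stability. MYC, which binds the DNA sequence CACGTG (the E-box) together with MAX, is known for raising ribosome production.

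Start sites are shown first because most of the family is known for the tract. RefSeq promoters of GRCh38.p14 hold 250 bases before and 50 after each annotated start, and 53 of the 62 member genes had one. The tract was read as the longest unbroken run of C and T that touches the 5 bases on either side of the start. Windows of 30 bases, 15 before the start and 15 from it on, are given 5′ to 3′ on the gene's strand, with that run in capitals. The first 5 are ribosomal proteins described below and the last 4 are paralogues.
RPL14: gggcgggTCTTCTTCCTTCTCgcctaacgc
RPL22: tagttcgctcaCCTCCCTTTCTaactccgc
RPS27: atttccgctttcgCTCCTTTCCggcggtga
RPS9: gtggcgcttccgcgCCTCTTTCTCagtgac
RPL3: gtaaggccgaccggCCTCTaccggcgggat
RPL22L1: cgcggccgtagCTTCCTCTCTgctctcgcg
RPS27L: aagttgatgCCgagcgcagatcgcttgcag
RPL26L1: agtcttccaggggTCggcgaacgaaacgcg
RPL7L1: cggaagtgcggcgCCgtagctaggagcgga

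The windows lie at chr3:40457324-40457353 on the plus strand for RPL14, chr1:6199581-6199610 on the minus strand for RPL22 and chr1:153990747-153990776 on the plus strand for RPS27. Those of RPS9 and RPL3 lie at chr19:54200843-54200872 (plus) and chr22:39319609-39319638 (minus). The paralogue windows lie at chr3:170870181-170870210 (minus) for RPL22L1, chr15:63157463-63157492 (minus) for RPS27L, chr5:172958714-172958743 (plus) for RPL26L1 and chr6:42879601-42879630 (plus) for RPL7L1. Each spans the end of the promoter and the first bases of the transcript.

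A run of at least 8 bases stood at the start of 35 of 46 ribosomal protein promoters (76.1%), with a median length of 11. The other 11 ribosomal protein promoters had a shorter one. A run of that length stood at 7 of 11 promoters of other genes known for a TOP tract (63.6%), 3 of 7 paralogue promoters (42.9%), 6 of 67 mitochondrial ribosomal protein promoters (9.0%) and 11% of all 27305 promoters, whose median run was 3. The annotated first base was C or T in 82.6% of the ribosomal protein genes, in 90.9% of those 11 other TOP genes and in 22.6% of all promoters. RPL14, RPL22, RPS27, RPS9 and RPL22L1 carried the long runs shown above, of 14, 11, 9, 10 and 10 bases. The run of RPL3 had 5 bases, and those of RPS27L, RPL26L1 and RPL7L1 had 2. These are matches of letters at an annotated start and not measured starts in these cells.

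**Figure D1:**
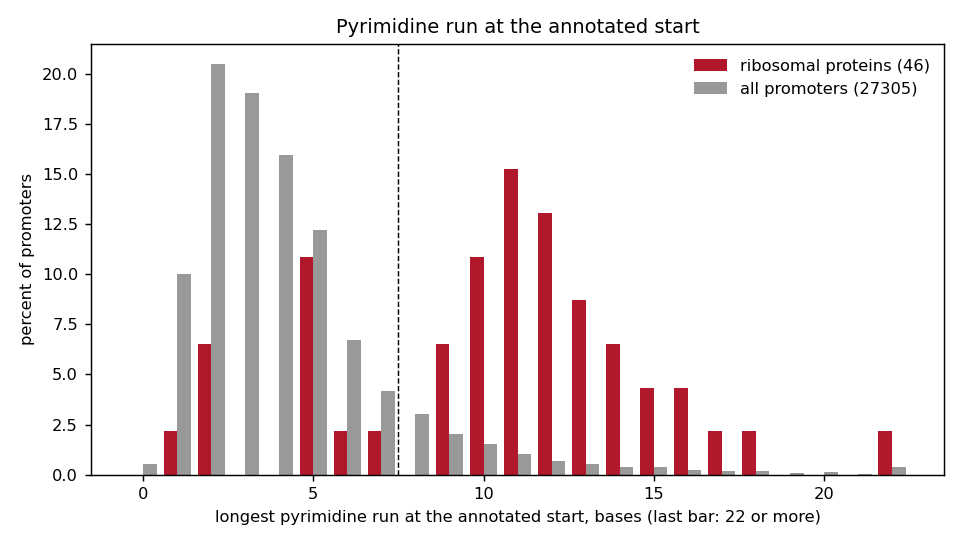
Length in bases of the longest C and T run at the annotated start (x axis) against the percent of promoters (y axis), for 46 ribosomal protein genes (red) and all 27305 promoters (grey). The dashed line marks the bound of 8 bases, past which 76.1% of the ribosomal protein genes and 11% of all promoters lie.

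The E-box CACGTG, which reads the same on both strands, occurred in 2 of 46 ribosomal protein promoters (4.35%). Of all promoters 7.43% held it, and of the 15843 protein-coding ones 8.88%. It occurred in 1 of 7 paralogue promoters (14.3%), that of RPL7L1. The 30-base windows below show the E-box in capitals, and in none of them does it overlap the run at the start.
RPL7L1 E-box: cacttccacctaCACGTGagagccaaagcc
RPS28 E-box: ctctccccgaagCACGTGactcctctccgc
RPL19 E-box: gttacagataacCACGTGattgggaaccct

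The RPL7L1 window is chr6:42879488-42879517, that of RPS28 is chr19:8321478-8321507 and that of RPL19 is chr17:39200040-39200069, all on the plus strand. A match is a description of the letters and was not tested for binding.

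Some measures of the arrays bear on every comparison. MYC itself had a log2 intensity of 13.47 to 13.91 in high Myc, 10.49 to 11.30 in low Myc, and 11.45 and 8.70 in no Myc replicates 1 and 2. The library labelled no Myc replicate 1 thus lies above every low Myc array in MYC, and its MYC level goes against its label. Its summed intensity over the 75 mitochondrial ribosomal proteins was 44928, near the 48483 of no Myc replicate 2. Low Myc arrays read 70834 to 100659 there. Counts or medians of each list, and the called values that end without the library labelled no Myc replicate 1, are also given with that array left out. That fit leaves 1 no Myc array and calls fewer genes over the whole array in every comparison. Its counts are therefore not to be set beside the shares of all genes from the 9 arrays. The 3′ minus 5′ log2 difference of the GAPDH controls was 0.25 and 0.42 in no Myc, beside 0.01 to 0.24 on the other arrays. That of the ACTB controls was 0.00 and -0.01 in no Myc, within the range of -0.07 to 0.19 on the others. Of 6 measured B-cell markers, 5 were called lower in high against no Myc and 4 in low against no Myc, beside 9.0% and 8.55% of all genes. Their summed intensity was 8232 to 15893 in high Myc, 9608 to 11948 in low Myc, and 31014 and 23683 in no Myc. With the library labelled no Myc replicate 1 left out, 1 and 2 of them were called lower. In high against low Myc 1 B-cell marker was called lower, beside 1.27% of all genes, while 5 of the 6 differences were positive. Of 6 T and NK, 4 myeloid, 2 erythroid and 5 stromal markers limma called 0 in any comparison. At an unadjusted p under 0.05, 1 stromal marker passed in high against no Myc and 1 in high against low Myc. Their part in the results below was not tested.

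Values are log2 of the RMA intensity, and a gene with several probe sets is read from its brightest one. A difference was called at an adjusted p under 0.05 in limma, with Benjamini-Hochberg adjustment over all 19775 genes. RMA makes the array distributions alike, so each difference is relative to the rest of the RNA on the array. In bulk RNA, fewer cells and less RNA per cell cannot be told apart, nor can a change in total RNA be seen.

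Read from the brightest probe set of each gene, ribosomal protein messengers were close to flat between high Myc and no Myc. Dimmer probe sets of some of these genes gave larger differences, described below. Of the 52 genes, 2 were called higher (RPL14 and RPL3) and 0 lower, or 8 and 2 at an unadjusted p under 0.05. Over all genes, 23.2% were called, 14.2% higher and 9.0% lower. The median difference of the 52 genes was 0.07, with a range of -0.26 to 0.55, beside a median of -0.01 over all genes. By subunit, the median was 0.08 for the 30 genes of the 60S subunit and 0.07 for the 20 of the 40S subunit. The 95% interval of the difference lay within 0.5 log2 either way for 46 of the 52 genes, and within 1 for 51. The exception to the wider bound was RPLP2. Leaving out the library labelled no Myc replicate 1, limma called 0 of the 52 and 2714 of all genes, and the median of the 52 was 0.06.

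Among 60S proteins, RPL14 read 13.41, 13.40, 13.50 and 13.54 on the high Myc arrays, 13.16, 13.28 and 13.07 on the low Myc arrays, and 12.82 and 13.01 on the no Myc arrays. The 3 groups did not overlap, and high Myc was highest. RPL14 averaged 13.46 ± 0.07 in high Myc (SD, n = 4) and 12.91 ± 0.13 in no Myc (SD, n = 2), a difference of 0.55 ± 0.10 (SE), or 1.46-fold (adjusted p = 0.00422). Leaving out the library labelled no Myc replicate 1 gave 0.45 (adjusted p = 0.0567).

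RPL3, a core protein near the catalytic centre of the 60S subunit, read 13.69, 13.58, 13.62 and 13.59 in high Myc, against 13.20 and 13.43 in no Myc. High Myc arrays were all above no Myc arrays, by less than the gap between the 2 no Myc arrays. The difference was 0.30 ± 0.10 (SE), or 1.23-fold, with adjusted p = 0.0499 in limma. That call was lost on leaving out any array other than no Myc replicate 2, in 8 of 9 such fits, with differences of 0.19 to 0.42.

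RPL11, a 60S protein that can bind the p53 regulator MDM2, read 13.38 to 13.44 in high Myc, against 13.43 and 13.46 in no Myc, and these values overlapped. Its difference was -0.04 ± 0.09 (SE; adjusted p = 0.838). RPL39, a small protein of the exit tunnel, differed by -0.09 ± 0.09 (adjusted p = 0.582). RPL36A is read from a single dim probe set at a mean of 5.09, and its difference of -0.26 was not called (adjusted p = 0.159).

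Among 40S proteins, RPS27, which carries a zinc finger, had the most negative difference. Its brightest probe set read 13.58, 13.53, 13.50 and 13.52 in high Myc, 13.59, 13.53 and 13.55 in low Myc, and 13.83 and 13.73 in no Myc. Both no Myc arrays were above all others, while high and low Myc overlapped. The difference between high and no Myc was -0.25 ± 0.08 (SE; adjusted p = 0.065). It was called under the trended prior (adjusted p = 0.039), with array weights (0.0395) and with quantile normalization repeated (0.0236). A fit lacking the library labelled no Myc replicate 1 gave -0.195 (adjusted p = 0.356).

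RPS6, the 40S protein that S6 kinases phosphorylate, differed by 0.08 between high and no Myc, with a 95% interval of -0.12 to 0.27. RPS14, which sits on the platform of the 40S subunit, differed by 0.14 ± 0.08 (SE; adjusted p = 0.311). RPS19, a gene mutated in Diamond-Blackfan anaemia, differed by -0.14 ± 0.09 (adjusted p = 0.352). All 3 intervals lay within 0.5 log2 of 0. Of the stalk proteins, which draw elongation factors to the ribosome, RPLP1 differed by 0.03 (95% interval -0.15 to 0.21). RPLP2 was read from a dim probe set with a wide spread, and its interval of -0.81 to 1.03 leaves the direction undetermined.

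High Myc arrays lay above both no Myc arrays for 28 of the 52 genes and below them for 7. Over all genes the groups did not overlap for 38.4%, with 20.6% higher and 17.8% lower in this way. FAU, which encodes the 40S protein eS30 fused to a ubiquitin-like domain and lies outside the symbol rule, read 13.20 to 13.30 in high Myc, against 13.38 and 13.41 in no Myc. Its difference of -0.14 ± 0.10 (SE) was not called (adjusted p = 0.439).

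The 35 genes with a run of at least 8 bases had a median difference of 0.07 between high and no Myc, and the 11 with a shorter run 0.08. One gene was called in each set, RPL14 and RPL3. This is a description with no test.

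These genes sit at the top of the intensity scale. The mean level reached 13 for 46 of the 52 ribosomal protein genes, and for only 86 genes on the whole array, of which they make up 53.5%. The highest value on any array was 14.25 to 14.32, while the median gene stood at 7.06. Whether differences are compressed this close to the top of the scale was not tested. Of the 40 other genes at 13 or above, 15 (37.5%) were called higher and 6 (15.0%) lower in high Myc against no Myc. Replicates lay close together, with a median within-group SD of 0.05 for the ribosomal proteins and 0.18 for all genes. The limma fit draws each gene's spread toward that of all genes, which widens the SE of such close replicates. RPS15, for instance, had a within-group SD of 0.008 and an SE of 0.08 in high against no Myc.

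Of the 111 ribosomal protein probe sets, 12 were called higher and 0 lower in high Myc against no Myc, beside 17.0% of all probe sets called, 9.25% higher and 7.8% lower. At a mean of 13 or above 1 of 62 was called higher, against 20.4% of all probe sets at that level. From 11 to under 13 it was 2 of 8, against 49.4% of all, and from 7 to under 11 it was 9 of 28, against 21.3% of all. Under 7 it was 0 of 13, against 1.83%. Differences from 7 to under 11 ranged from -0.85 to 1.47, and no trend with level was tested. This split by level was chosen after the values were seen. With the library labelled no Myc replicate 1 left out, 4 of the 111 were called, beside 8.69% of all probe sets: those of RPL22, RPL37, RPS23 and RPL35A with the largest differences given below.

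**Figure D2:**
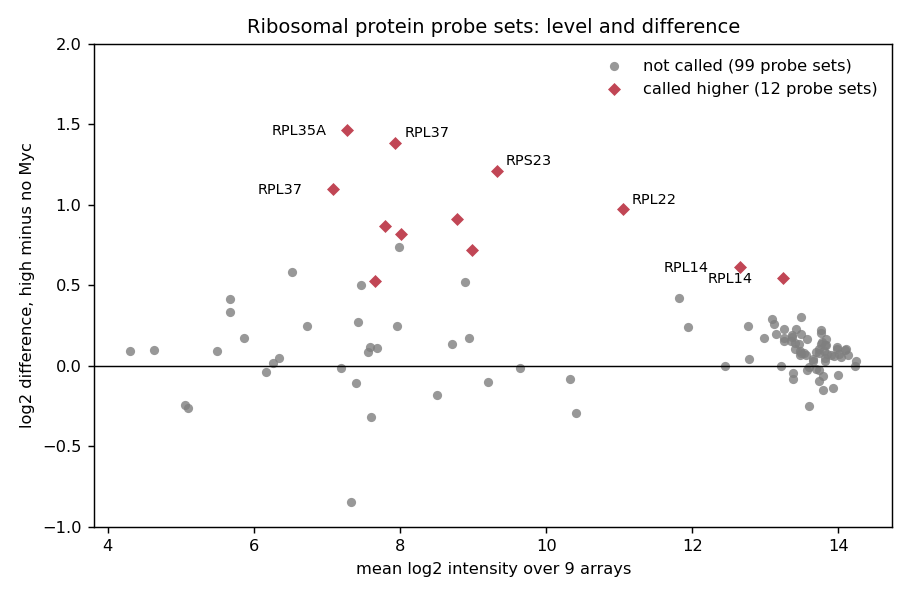
Mean log2 intensity over the 9 arrays (x axis) against the log2 difference of high minus no Myc (y axis) for the 111 ribosomal protein probe sets. Diamonds are the 12 called higher, and circles the rest; probe sets of 13 or above cluster near 0, and the 9 called between 7 and 11 lie at 0.53 to 1.47.

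RPL37, a small zinc-binding 60S protein, was read by 4 probe sets. The brightest read 13.40, 13.40, 13.40 and 13.41 in high Myc, against 13.46 and 13.51 in no Myc, with all high Myc arrays below both no Myc arrays. Its difference was -0.08 ± 0.08 (SE; adjusted p = 0.65 over all probe sets). A dim probe set with a mean of 7.94 read 9.03, 8.36, 8.35 and 8.53 in high Myc, against 6.87 and 7.49 in no Myc. All high Myc arrays were above both no Myc arrays, by 1.39 ± 0.22 (SE; adjusted p = 0.00326). This call held on leaving out each array. The other two dim probe sets differed by 1.10 (adjusted p = 0.0429) and 0.91 (adjusted p = 0.00569) in limma. The first of these calls was lost in 5 of 9 fits that left out 1 array, with differences of 0.72 to 1.48, and the second when the library labelled no Myc replicate 1 was removed, with adjusted p = 0.0506.

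RPL35A, a 60S protein mutated in Diamond-Blackfan anaemia, also had probe sets that differed. Its brightest probe set read 13.12 to 13.43 in high Myc, against 12.84 and 13.07 in no Myc, and the difference of 0.26 was not called (adjusted p = 0.191 over all probe sets). A dim one with a mean of 7.28 read 7.97, 7.62, 8.004 and 7.94 in high Myc, 6.96, 7.31 and 6.85 in low Myc, and 6.43 and 6.40 in no Myc. The 3 groups were in that order with no overlap, and high Myc exceeded no Myc by 1.47 ± 0.15 (SE; adjusted p = 0.000546). That call held on leaving out each array. Another dim probe set of RPL35A, with a mean of 7.60, differed by -0.32 (adjusted p = 0.127).

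RPS23, a 40S protein of the decoding centre, read 14.04 to 14.08 in high Myc, against 13.99 and 14.03 in no Myc, on its bright probe set. Its dim probe set read 10.26, 9.71, 9.74 and 9.54 in high Myc, against 8.55 and 8.65 in no Myc. There the difference was 1.21 ± 0.18 (SE; adjusted p = 0.00238), a call that held on leaving out each array, and it was 0.05 on the bright one. RPL22, a 60S protein, differed by 0.97 ± 0.13 (SE; adjusted p = 0.00163) on a less bright probe set, where high Myc also exceeded low Myc by 0.82 ± 0.12 (adjusted p = 0.018). The call against no Myc held on leaving out each array, while that against low Myc was lost in 2 of 9 such fits, those lacking replicate 3 of high Myc or replicate 1 of low Myc (0.74 to 0.87 over the 9 fits, highest adjusted p = 0.0734 in limma), and with the replicate block. Its brightest probe set differed by 0.19. Called dim and uncalled bright probe sets also stood side by side for RPL37A (0.87 on the dim and 0.03 on the bright probe set), RPS21 (0.72 and 0.17), RPS28 (0.82 and -0.06) and RPS16 (0.53 and 0.06). All 4 of these calls ended on leaving out the library labelled no Myc replicate 1. RPS27 went the other way. Read as the median of its probe sets it gave -0.548 (adjusted p = 0.0337 in limma), against -0.247 on its brightest one. The positions of the probe sets in their genes were not analysed here, so which transcript each reads is not known.

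Low Myc against no Myc gave no called ribosomal protein gene. Of the 52 genes, 0 were called by limma and 1 was higher and 1 lower at an unadjusted p under 0.05, RPL14 and RPS27, while 19.8% of all genes were called, 11.3% higher and 8.55% lower. The median was -0.015, beside -0.002 over all genes, and the range -0.27 to 0.26. The interval lay within 0.5 log2 for 47 of the 52. Low Myc arrays lay above both no Myc arrays for 7 genes and below them for 15, while 37.6% of all genes did not overlap, 20.0% higher and 17.6% lower. RPL14 differed by 0.26 ± 0.11 (SE; adjusted p = 0.147). On 111 probe sets, 1 was called, a dim one of RPL35A (0.62), beside 14.4% of all, 6.74% higher and 7.66% lower. That call was lost without any of 6 arrays, each no Myc array among them. With the library labelled no Myc replicate 1 left out the median of the 52 genes was -0.031, beside -0.004 over all genes.

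High Myc against low Myc compares 4 arrays with 3, and its spread is estimated over all 9 arrays. MYC differed by 2.70 between these groups. Of the 52 genes, 0 were called in either direction, while 3.6% of all genes were called, 2.33% higher and 1.27% lower. Unadjusted, 6 were higher and 0 lower. The differences were nearly all of 1 sign, 48 positive and 4 negative. Their median was 0.09 and their range -0.15 to 0.32, beside a median of 0.00 over all genes. Over the 638 genes with a mean log2 of at least 11 the median was 0.104. It was 0.097 for the 49 ribosomal protein genes among them. Most of the 638 are less bright than these, since only 86 genes reach a mean of 13. The same 2 medians were 0.378 and 0.075 in high against no Myc, and 0.352 and -0.016 in low against no Myc. High and low Myc arrays did not overlap for 25 of the 52 genes, all higher in high Myc. Over all genes 12.7% did not overlap, 8.06% higher and 4.66% lower. The interval lay within 0.5 log2 for 49 genes and within 1 for all 52. The median over the 52 genes ranged over 13.69 to 13.73 in high Myc and 13.56 to 13.66 in low Myc, and stood at 13.64 and 13.68 in no Myc. Leaving out the library labelled no Myc replicate 1 reduced the calls over all genes to 406, against 712 with it, while 0 of the 52 genes were called either way.

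RPS9, a 40S protein, led this comparison with 12.98, 12.94, 12.87 and 12.94 in high Myc, against 12.66, 12.70 and 12.48 in low Myc. The groups were apart, and the difference was 0.32 ± 0.08 (SE), or 1.25-fold, with adjusted p = 0.0751. It was called with array weights (adjusted p = 0.0463). RPL14 differed by 0.29 ± 0.09 (adjusted p = 0.127) and RPS12, a 40S protein, by 0.22 ± 0.09 (adjusted p = 0.222). On 111 probe sets 2 were called, one of RPL22 and one of RPL35A, beside 1.58% of all, 1.05% higher and 0.531% lower. The RPL35A difference of 0.84 (adjusted p = 0.0254 in limma) lost its call in 7 of 9 fits that left out 1 array, with 0.75 to 0.98.

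Several paralogues differed between the groups. Of 9 measured, 3 were called higher in high against no Myc (RPL26L1, RPL7L1 and RPL22L1), and 4 in low against no Myc (RPL26L1, RPL7L1, RPS27L and RPL39L), with 0 lower in each. Over all genes these shares were 14.2% and 11.3%. With the library labelled no Myc replicate 1 left out the counts were 3 and 2. None was called in high Myc against low Myc (1 higher and 0 lower at an unadjusted p under 0.05). Their medians were 0.45, 0.76 and 0.15 for high against no, low against no and high against low Myc. Whether a paralogue and its namesake differ in their change was not tested. High and low Myc are set against the same no Myc arrays here.

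RPL26L1, a near-copy of RPL26, read 10.82, 11.29, 11.33 and 11.10 in high Myc, 10.87, 11.04 and 10.42 in low Myc, and 9.51 and 9.61 in no Myc. Both no Myc arrays were far below all others. High Myc averaged 11.14 ± 0.23 (SD, n = 4) and no Myc 9.56 ± 0.07 (SD, n = 2), a difference of 1.58 ± 0.19 (SE), or 2.99-fold (adjusted p = 0.000542). Low Myc exceeded no Myc by 1.22 ± 0.20 (SE; adjusted p = 0.00332). Both calls held on leaving out each array, the library labelled no Myc replicate 1 included (1.53 and 1.17). RPL26 itself has no single-symbol probe set and was not analysed here.

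RPL7L1, whose yeast relative Rlp7 acts in assembly of the large subunit, read 11.67, 11.65, 11.75 and 11.54 in high Myc, 11.36, 11.33 and 11.08 in low Myc, and 10.40 and 10.24 in no Myc. The groups were ordered with no overlap. High Myc exceeded no Myc by 1.33 ± 0.11 (SE; adjusted p = 0.000143), and low Myc exceeded it by 0.94 ± 0.12 (SE; adjusted p = 0.00108). Leaving out the library labelled no Myc replicate 1 gave 1.42 and 1.02, and both calls held in every fit that left out 1 array. High Myc against low Myc gave 0.39 ± 0.10 (adjusted p = 0.0696). RPL7 read 13.81 to 13.85 in high Myc, against 13.59 and 13.66 in no Myc (0.21, adjusted p = 0.118).

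RPL22L1, the paralogue of RPL22, read 12.13, 12.11, 11.97 and 12.04 in high Myc, 12.05, 11.88 and 10.91 in low Myc, and 10.95 and 10.55 in no Myc. Low Myc replicate 3 stood with the no Myc arrays and apart from the other low Myc arrays. The difference of high against no Myc was 1.31 ± 0.28 (SE), or 2.48-fold (adjusted p = 0.00795), but a fit lacking no Myc replicate 2 gave 1.11 and no call (adjusted p = 0.0827), and one lacking the library labelled no Myc replicate 1 gave 1.51 (adjusted p = 0.0332). Low against no Myc gave 0.86 ± 0.29 (adjusted p = 0.0754). RPL22 differed by 0.19 ± 0.08 between high and no Myc (adjusted p = 0.152).

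RPS27L, a paralogue of RPS27 known as a target of p53 in human cells, was highest in low Myc. It read 12.01, 12.60, 11.98 and 11.98 in high Myc, 12.58, 12.36 and 12.50 in low Myc, and 11.75 and 11.64 in no Myc. High Myc replicate 2 read with the low Myc arrays, and the other high Myc arrays fell between the groups. Low Myc exceeded no Myc by 0.79 ± 0.19 (SE; adjusted p = 0.0178), a call that ended on leaving out low Myc replicate 1 or any 1 of the no Myc arrays. Leaving out the library labelled no Myc replicate 1 gave 0.84 (adjusted p = 0.0858). Its second, dimmer probe set differed by 1.24 ± 0.28 (adjusted p = 0.0198 over all probe sets), and that call ended on leaving out any 1 of the no Myc arrays. High against no Myc gave 0.45 (adjusted p = 0.123) and high against low Myc -0.34 (adjusted p = 0.338). RPS27 differed by -0.22 in low against no Myc (adjusted p = 0.121).

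RPL39L, a paralogue of RPL39 known from testis in the mouse, read 7.75, 7.77 and 7.26 in low Myc, against 6.57 and 7.10 in no Myc. The groups did not overlap, and the difference was 0.76 ± 0.22 (SE; adjusted p = 0.0425). Leaving out 1 array lost this call in 6 of 9 fits, and leaving out the library labelled no Myc replicate 1 gave 0.49 (adjusted p = 0.344). RPL3L, known from striated muscle, RPL10L and RPL36AL were called in none of the comparisons, with differences of -0.07, -0.02 and -0.01 between high and no Myc. RPS19BP1, which binds RPS19 and regulates SIRT1, differed by 0.67 ± 0.14 (SE; adjusted p = 0.00815) between high and no Myc, and leaving out the library labelled no Myc replicate 1 gave 0.61 (adjusted p = 0.084).

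**Figure D3:**
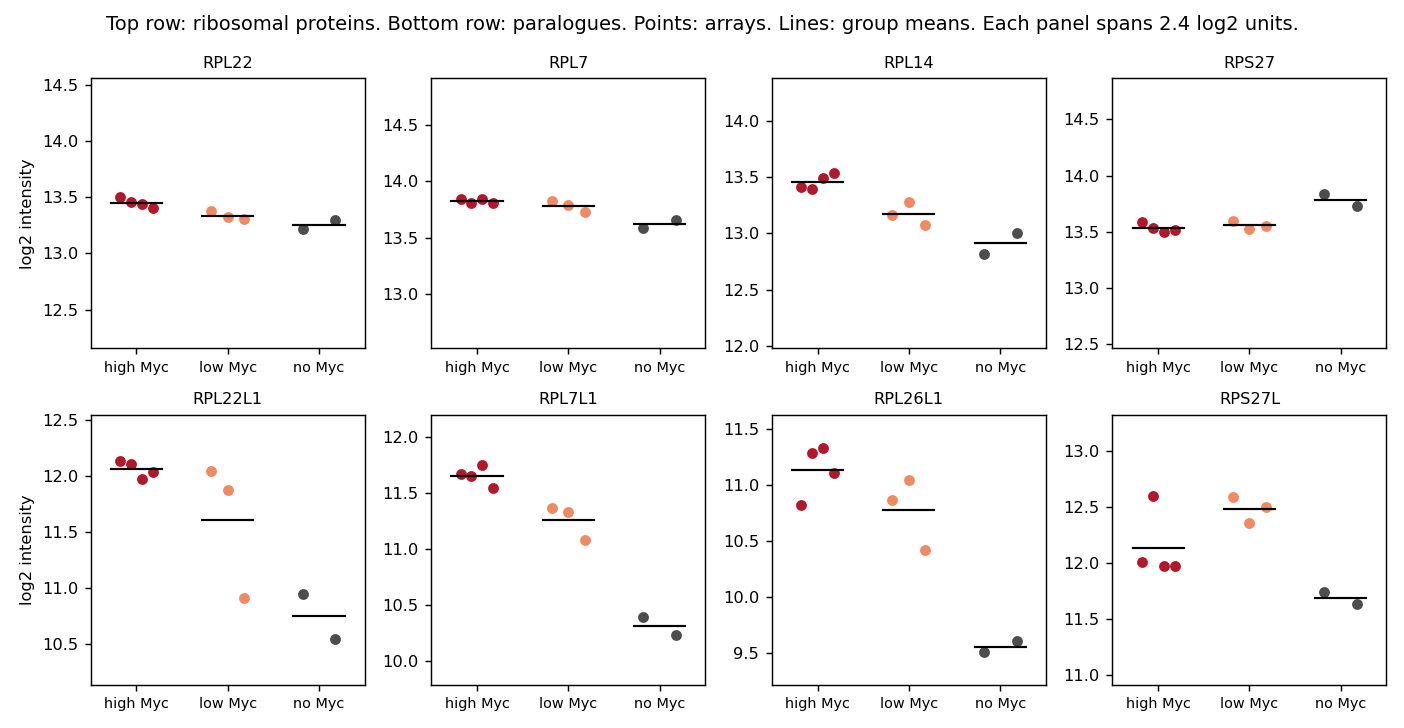
Log2 intensity on each array (y axis) by group (x axis, high, low and no Myc) for RPL22, RPL7, RPL14 and RPS27 in the top row and for the paralogues RPL22L1, RPL7L1, RPL26L1 and RPS27L in the bottom row. Points are arrays and lines are group means; every panel spans 2.4 log2 units, so steps can be compared between panels while levels cannot.

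A few ribosomal protein probe sets varied widely between arrays of the same group, in a shared pattern. The 6 with the widest spread belong to 5 genes, RPL38 (with 2), RPLP2, RPL27A, RPL14 and RPS10, with within-group SDs of 0.45 to 0.65. All 6 stood above their group mean on high Myc replicate 4, low Myc replicate 2 and no Myc replicate 2, and below it on high Myc replicate 1, low Myc replicate 1 and no Myc replicate 1. For the RPL38 probe set with the widest spread the deviations were 0.60, 0.85 and 0.52 on the arrays named first. Over the 9 arrays the pairwise correlations of these deviations were 0.85 to 0.99 with a median of 0.93, positive in 15 of 15 pairs. They share the arrays and the RNA, so this is a description. RPLP2 and RPL27A are represented in the gene counts by these probe sets, and RPL38, RPL14 and RPS10 by brighter ones.

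**Figure D4:**
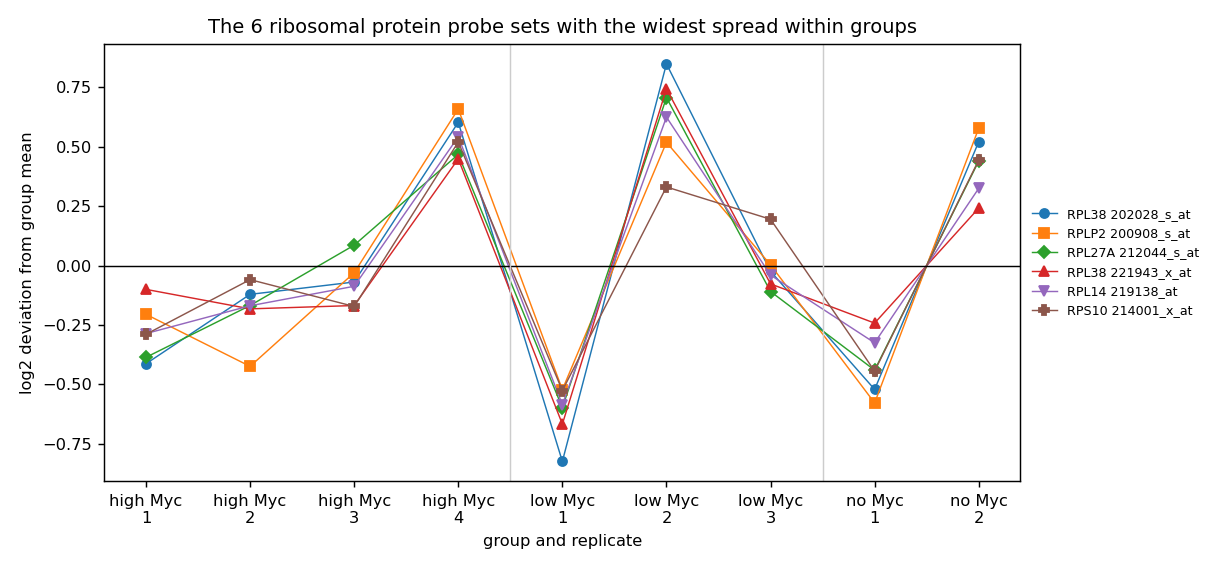
Deviation of log2 intensity from the group mean (y axis) on each of the 9 arrays (x axis) for the 6 ribosomal protein probe sets with the widest spread within groups. Lines join the values of 1 probe set and have no time order; the 6 lines follow one another, with peaks on high Myc replicate 4, low Myc replicate 2 and no Myc replicate 2.

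Genes that serve the ribosome without being part of its cytosolic protein set gave other counts, to be read against the 14.2% and 9.0% of all genes called higher and lower in high against no Myc, 11.3% and 8.55% in low against no Myc, and 2.33% and 1.27% in high against low Myc. Of 75 mitochondrial ribosomal proteins, which build the separate ribosome of the mitochondrion, 68 were called higher and 0 lower in high against no Myc (median 1.22), 60 and 0 in low against no Myc (0.94), and 2 and 0 in high against low Myc (0.24). Removing the library labelled no Myc replicate 1 gave 57, 37 and 1 higher and 0 lower. MRPS2 read 10.68 to 10.87 in high Myc, 9.45 to 9.85 in low Myc, and 8.19 and 8.29 in no Myc, with no overlap, a difference of 2.51 ± 0.12 (SE; adjusted p = 3.46e-05) between high and no Myc.

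Assembly factors build the subunits and leave before translation. Of 12 factors of 40S assembly, 11 were called higher and 1 lower in high against no Myc (median 1.40), and 10 and 0 in low against no Myc (1.16). Of 19 factors of 60S assembly, 16 and 13 were called higher and 0 lower in these comparisons (medians 1.27 and 0.90). With the library labelled no Myc replicate 1 left out, 10 and 6 of the 40S factors and 12 and 7 of the 60S factors were called higher, and 0 lower. BYSL, needed late in 40S assembly, read 9.45 to 9.76 in high Myc, 9.16 to 9.38 in low Myc, and 7.50 and 7.46 in no Myc. It differed by 2.17 ± 0.12 (SE; adjusted p = 5.32e-05) between high and no Myc. WDR12, of the PES1 and BOP1 complex in 60S assembly, differed by 2.59 ± 0.28 (adjusted p = 0.000334).

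Free ribosomal proteins are carried by chaperones and importers. Of 10 such carriers, 8 were called higher and 0 lower in high against no Myc (median 1.32) and again 8 and 0 in low against no Myc (1.16), or 7 and 4 higher with the library labelled no Myc replicate 1 left out. IPO5, an importin, read 11.23 to 11.36 in high Myc, 10.65 to 11.14 in low Myc, and 8.67 and 9.05 in no Myc. Its difference of 2.46 ± 0.16 (SE) between high and no Myc was called (adjusted p = 8.83e-05). BCCIP, whose yeast relative Bcp1 carries the protein Rpl23, differed by 1.83 ± 0.26 (SE; adjusted p = 0.00115).

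Other messengers are known to carry a TOP tract. Of 17 such genes, mostly translation factors, 7 were called higher and 0 lower in high against no Myc (median 0.28), 2 and 0 in low against no Myc (0.07), and 0 in high against low Myc (5 higher and 0 lower at an unadjusted p under 0.05). The 2 of low against no Myc are near the 11.3% of all genes. A fit lacking the library labelled no Myc replicate 1 gave 3 and 1 higher in the comparisons with no Myc. EIF4B, an initiation factor, differed by 0.86 ± 0.14 (SE; adjusted p = 0.00233) between high and no Myc, and NPM1, a nucleolar histone chaperone, by 0.88 ± 0.11 (adjusted p = 0.000613). Of 2 host genes of small nucleolar RNAs with a TOP tract, GAS5 and ZFAS1, ZFAS1 had a difference of -0.41 (adjusted p = 0.0412) in low against no Myc and of 0.62 (adjusted p = 0.0159) in high against low Myc. The first call was lost in 6 of 9 fits that left out 1 array (-0.46 to -0.36, highest adjusted p = 0.169 in limma), and the second in 3 of 9 (0.56 to 0.69, highest 0.0572). Both were lost with quantile normalization repeated and with the replicate block.

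Of 12 genes that control TOP messengers, 6 were called higher and 1 lower in high against no Myc (median 0.54), and 5 and 1 in low against no Myc (0.41). With the library labelled no Myc replicate 1 left out these were 4 and 0, and 1 and 0. LARP1, the TOP-binding protein, read 11.42 to 11.66 in high Myc, 10.54 to 11.28 in low Myc, and 10.19 and 10.17 in no Myc, a difference of 1.32 ± 0.18 (SE; adjusted p = 0.000855) between high and no Myc. EIF4EBP1, the mTOR target that blocks cap-dependent initiation when unphosphorylated, differed by 2.16 ± 0.19 (adjusted p = 0.000159). TIA1, which can bind TOP messengers under stress, differed by -0.71 ± 0.17 (adjusted p = 0.0154). It gave -0.53 and no call with the library labelled no Myc replicate 1 removed (adjusted p = 0.17).

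**Figure D5:**
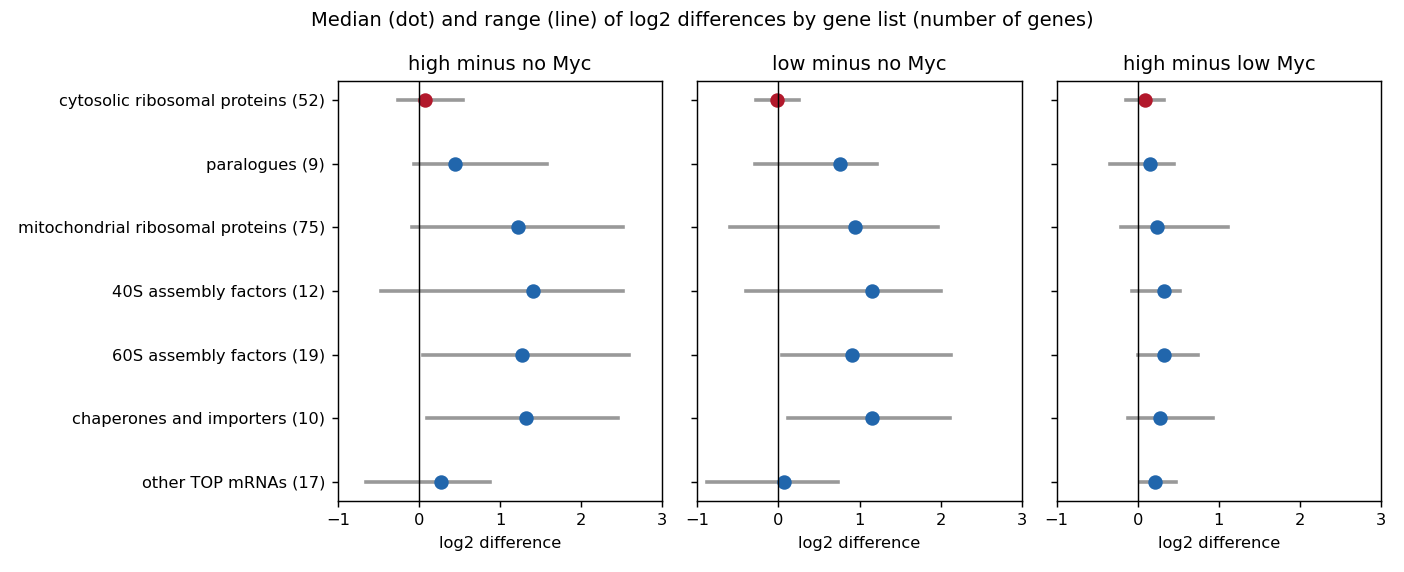
Median (dot) and range (line) of log2 differences (x axis) for 7 gene lists (y axis, number of genes in brackets), with the cytosolic ribosomal proteins in red, in high minus no Myc, low minus no Myc and high minus low Myc. The ribosomal proteins centre at 0.07, -0.02 and 0.09, while mitochondrial ribosomal proteins centre at 1.22, 0.94 and 0.24; the first and second panels share the no Myc arrays.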

How the data were processed

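RNA of 9 P493-6 samples was measured on Affymetrix arrays. The authors used RMA, per the submitters' processing notes (version not given in the sources used here), and deposited its values as linear intensity, as their range shows. No build or coordinates for the probe sets are given in the sources used here. Log2 of the deposited intensity was used. Platform annotation named the probe sets (41097 with 1 symbol, 1801 with several, 11777 with none), symbols were updated by Entrez identifier, and the probe set with the highest mean stood for a gene. Members and lists were chosen with earlier results of these data known. Named members were those called, the 4 largest differences in each direction without overlap per comparison, paralogue pairs, fixed members of the stalk, 5S particle and 40S subunit, and genes whose probe sets differ by over 1; in other lists up to 3 called genes. RPS16, RPS21, RPL37A and the 6 probe sets of widest spread were chosen after their values were seen.

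One limma model (version 3.58.1, R 4.3.3) gave the group means (eBayes without trend, 6 residual degrees of freedom) over all arrays, over 19775 genes and separately over 54613 probe sets. Tests were two-sided. The procedure was tested on simulated data. Promoter letters were read from RefSeq tables of GRCh38.p14 with Python 3.11.15. Alternatives were other scalings, filters, probe set choices, priors, array weights, the replicate block, a threshold of 0.01 and each array left out. The labels do not say whether replicate numbers pair the arrays, and the main model did not pair them. The split of probe sets by level was made after the values were seen. The number of arrays limits the precision.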

Additional observations from a re-analysis of the deposited data

Results flagged for a closer look

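Of 69 member probe sets called or representing a gene that were checked in the high Myc group of 4 arrays, 4 had a lone value, judged by its gap to the nearest array relative to the range of the group, and chance gives about 1 in 20. RPS27L read 12.60 on high Myc replicate 2, against 11.98 to 12.01 on the others. RPL10L read 7.20 on high Myc replicate 1, against 6.63 to 6.67. A dim probe set of RPL35A read 7.62 on high Myc replicate 2, against 7.94 to 8.004. The bright probe set of RPL37 read 13.41 on high Myc replicate 4, against 13.40 on the others. The others read 13.401 and the lone value 13.413, so the gap is small on the log2 scale.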

How the results depend on the processing

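Of the ribosomal protein genes, 2 were called in high against no Myc. The count was 1 with genes at a mean log2 of at least 5, with only the 2 groups compared and with the replicate block. It was also 1 at an adjusted p under 0.01 and without probe sets ending in _x_at. That last setting keeps 45 of the 52 genes and leaves out RPL3, whose only probe set ends in _x_at. The count was 9 over the 638 genes with a mean of at least 11, of which RPS27 was lower. That setting tests fewer genes and also estimates the shared spread anew from these bright genes alone. There 70.2% of the 638 were called, against 18.4% of the 49 ribosomal protein genes among them. The count was 7 with a gene read as the median over its probe sets, of which RPS27 was lower. With 1 array left out it was 0 to 2, and 0 with no Myc replicate 1 removed. Low against no Myc gave 2 over the bright genes (RPL14 higher, RPS27 lower), 63.6% of which were called, and 0 to 0 with 1 array left out. High against low Myc gave 1 over the bright genes (9.72% of which were called), 1 with the median of probe sets, 1 without _x_at sets and 1 with array weights, and 0 to 0 with 1 array left out. Called probe sets numbered 12 in high against no Myc, 7 at an adjusted p under 0.01 and 4 to 13 with 1 array left out. In low against no Myc they numbered 1, then 5 with quantile normalization repeated, 2 with arrays centred on their median, 2 with array weights, 0 at 0.01 and 0 to 3 with 1 array left out. In high against low Myc they numbered 2, then 1 with quantile normalization repeated, 5 with array weights, 0 with the replicate block, 0 at 0.01 and 0 to 3 with 1 array left out. The median difference in high against no Myc was 0.114 with centred arrays and 0.108 with the median of probe sets (0.06 to 0.088 with 1 array left out). In low against no Myc it turned positive, 0.033 and 0.031 under the same settings (-0.031 to 0.013). In high against low Myc it was 0.043 with quantile normalization repeated (0.058 to 0.104). Differences of single genes turned sign with the median of probe sets for RPL37 (1.149) and RPS28 (0.819) in high against no Myc and for PDCD2 (-0.064) in high against low Myc. Without _x_at sets BTF3 gave -0.039 in high against no Myc and -0.018 in low against no Myc. For RPL37 and RPS28 the setting takes in the dim probe sets named above; the cause was not tested for the others. Over named genes 3143 alternative values kept direction and side of the threshold, 131 lost the call, 45 gained it and 5 turned. Whether the replicate numbers pair the arrays is not known. Deviations from the group means correlated between same-numbered arrays at -0.31 to 0.25 between high and low Myc, and at 0.07 to 0.47 with no Myc. The replicate 1 arrays of the 3 groups correlated at 0.25, 0.45 and 0.47 with one another. With 2 no Myc arrays the deviations of one mirror those of the other, so their correlations are not separate. Beside the counts above, the block ended the calls of RPL3 in high against no Myc and RPS27L in low against no Myc, and gained RPL39L in high against no Myc and RPL22L1 in low against no Myc, among the members.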

Other observations

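Pseudogenes of ribosomal proteins, which the symbol rule leaves out, have 11 probe sets of 9 genes with a name of their own. None was called higher and 2 were called lower in high against no Myc, 0 and 3 in low against no Myc, and 0 in high against low Myc (1 at an unadjusted p under 0.05). Over all probe sets 9.25% were called higher and 7.8% lower in high against no Myc, and 6.74% and 7.66% in low against no Myc. RPS16P5 read 7.08, 6.96, 7.06 and 7.29 in high Myc, 7.08, 6.95 and 6.86 in low Myc, and 8.18 and 8.34 in no Myc. Both no Myc arrays were above all others, with a difference of -1.16 ± 0.12 (SE; adjusted p = 0.000466) between high and no Myc and -1.30 ± 0.12 (adjusted p = 0.000693) between low and no Myc. RPS10P7 differed by -0.45 (adjusted p = 0.0099) and -0.415 (adjusted p = 0.0229). Leaving out the library labelled no Myc replicate 1 gave -1.24 (adjusted p = 0.0062) and -1.38 (adjusted p = 0.00848) for RPS16P5, and for RPS10P7 -0.46 (adjusted p = 0.068) and -0.42 (adjusted p = 0.119) with no call. Whether these probe sets also read the parent gene was not tested.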
